A study of Mus musculus with 8 samples.

Results

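The genes described here are 47 genes of DNA replication and S phase, measured as newly made RNA in mouse embryonic stem cells with or without induced loss of Ythdc1. They were taken by name from a list that holds the subunits of the replication machinery, the enzymes of deoxynucleotide supply, the S-phase cyclins, E2f1, Slbp and genes of fork protection. All 47 were among the 37793 genes of the table, and all 47 were among the 20656 genes that reached a value of 10 in 2 or more of the 8 libraries.

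The cells were male mouse embryonic stem cells derived from 129 mice, carried conditional alleles of Ythdc1 (Ythdc1_cKO) and grew without feeder cells in serum/LIF medium. Ythdc1 encodes a nuclear protein that reads N6-methyladenosine in RNA. Every culture had 4 days of DMSO or of 4-hydroxytamoxifen (4OHT, 1 μg/ml), and then 3 h of 100 μM DRB, a reversible block of RNA polymerase II elongation. After DRB was washed out, RNA was labelled with 1 mM 4-thiouridine (4sU) for 0 or 8 min, and the labelled RNA was purified and sequenced. The 4 groups were DMSO at 0 min, 4OHT at 0 min, DMSO at 8 min and 4OHT at 8 min, each with 2 libraries. Control and treated cells thus shared the alleles, the DRB block and the label, and the recombinase and the exons removed by 4OHT are not given in the sources used here. The sample titles give 1 stem cell number at 0 min and another at 8 min, so the cell line may differ between the labelling times. The column names instead carry both numbers at both times, and the sources used here do not resolve this conflict. Nothing says that the 2 libraries of a group came from separate cultures, so the p-values rest on a spread between libraries that may be technical.

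Replication begins when the origin recognition complex, CDC6 and CDT1 load the MCM2 to MCM7 helicase on DNA in G1, and CDC7 with DBF4 and the cyclin-dependent kinases then convert it, with CDC45 and GINS, into an active helicase. Primase and DNA polymerases copy the opened strands, PCNA and its loader RFC keep the polymerases on DNA, and FEN1 and LIG1 join the fragments of the lagging strand. Many of these genes are targets of E2F transcription factors, and mouse embryonic stem cells have a short G1 and spend much of their cycle in S phase.

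Because E2F factors are known to act at promoters of this family, the reference promoters of the members were searched for 4 E2F words (TTTCCCGC, TTTGGCGC, TTTCGCGC and TTTGCCGC, on both strands). A promoter window of 250 bases before to 50 bases after the start (RefSeq, GRCm38.p6) was at hand for 37 of the 47 genes. An E2F word lay in 13 of these 37 windows (35.1%), and in 4.21% of the 12305 windows of all genes that passed the filter. The 7 members below that were lower with 4OHT at 8 min and hold a word are shown first. Gins3, the member with the highest fold change at 8 min, follows and was chosen after its values were seen. Each stretch reads 5′ to 3′ along the gene's strand, with capitals for the E2F word.
Cdc6: gccggtggagaGCGGGAAAtcgcctggggt
Clspn: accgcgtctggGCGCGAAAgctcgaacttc
Cdt1: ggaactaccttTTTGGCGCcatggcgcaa
Rfc3: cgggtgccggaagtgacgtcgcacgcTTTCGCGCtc
Mcm3: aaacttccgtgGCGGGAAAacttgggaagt
Mcm6: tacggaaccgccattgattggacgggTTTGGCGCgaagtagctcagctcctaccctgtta
Lig1: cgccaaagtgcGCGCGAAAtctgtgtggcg
Gins3: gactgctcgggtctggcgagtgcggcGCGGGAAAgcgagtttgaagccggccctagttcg

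The Cdc6 stretch is chr11:98908002-98908031 on the plus strand, the Clspn stretch chr4:126556990-126557019 on the plus strand, and the Cdt1 stretch chr8:122568036-122568064 on the plus strand. The Rfc3 stretch is chr5:151651209-151651244, the Mcm3 stretch chr1:20820275-20820304 and the Mcm6 stretch chr1:128359719-128359778, all on the minus strand. The Lig1 stretch is chr7:13278841-13278870 and the Gins3 stretch chr8:95633492-95633551, both on the plus strand. The start is that of the window: in Clspn, Cdt1, Mcm3 and Lig1 the word lay just past it, and in the other 4 genes before it. A window can belong to an inner start of a gene. That of Cdc6 lies 442 bases inside the annotated gene, and that of Lig1, 1 of 3 windows of this gene, 1651 bases inside. A word is a match of letters and not a measured binding site.

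Sequencing depth, in M reads (mega), was between 46.3 and 61.4 in the 0 min libraries and between 93.1 and 134 in the 8 min libraries. Per library, 61900 to 77228 reads fell in the 47 genes at 0 min and 399974 to 464136 at 8 min, and the least covered member had 76 reads. Replicates spread more at 0 min (SD of the log2 ratio across genes 0.79 with DMSO and 0.84 with 4OHT) than at 8 min (0.37 and 0.31). All 10 embryonic stem cell markers passed the filter and summed to 7851 and 7232 normalised reads in the DMSO libraries of 8 min and to 6509 and 6466 in the 4OHT libraries. On the relative scale defined below 4 of the 10 were lower, among them Nanog (-1.01), and 1 was higher, with a median of -0.20, and the part of this in the results was not tested. The 2-cell-like markers, genes of a rare state of these cultures, summed to 24.9 and 27.1 in the DMSO libraries and to 277 and 258 in the 4OHT libraries at that time, and their part in the results below was not tested. Of the 8 fibroblast and feeder markers 3 passed the filter and 1 of these, Col1a1, was lower (-1.04). The list summed to 101 and 110 with DMSO against 71.0 and 89.4 with 4OHT, and its part was not tested. Primitive endoderm markers summed to 174 and 152 with DMSO and to 230 and 226 with 4OHT, with Lama1 (1.04) and Dab2 (0.70) higher. Trophoblast markers summed to 141 and 140 with DMSO and to 102 and 113 with 4OHT. Of these Krt18 (-1.14) and Tfap2c (-0.60) were lower and Krt7 (1.35) was higher. The part of both lists was not tested. Ythdc1 itself had 2939.5 and 3593 normalised reads in DMSO cells and 2041 and 2465 in 4OHT cells at 8 min (log2 fold change on the relative scale -0.53 ± 0.13 SE, adjusted p = 0.00259), while on the deposited scale the fold change was 0.93 and did not pass (adjusted p = 0.170). This level covers the whole gene, so it does not measure the deleted exons.

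A share of all reads in genes scales each library to its total in genes, so it is also a relative measure. The 47 genes took at 8 min 0.608% and 0.629% in DMSO cells, against 0.529% and 0.50% in 4OHT cells. Both 4OHT libraries were below both DMSO libraries. Genes with many reads weigh most in this share. Slbp and Rfc4 held 63603 and 51786 of the 464136 member reads in DMSO number 1 of 8 min. In 4OHT number 1 of 8 min they held 55540 and 37812 of 430135. At 0 min DMSO cells had shares of 0.157% and 0.179% and 4OHT cells of 0.166% and 0.168%, which overlapped. With 2 libraries against 2, no exact permutation test of such a share can pass 0.05, and none is given.

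**Figure D1:**
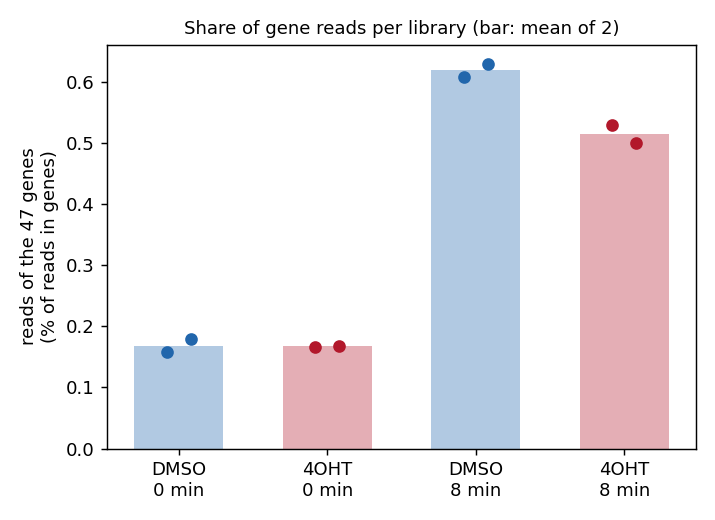
Reads of the 47 genes as a percent of all reads in genes (vertical axis), for the 4 groups; each point is a library and each bar the mean of 2. At 8 min both 4OHT points (0.529% and 0.50%) lie below both DMSO points (0.608% and 0.629%), and at 0 min the groups overlap.

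The main question of the design, what loss of Ythdc1 does to RNA made after the release from DRB, has 2 answers for these genes that depend on the scale. On the deposited scale all but 428 of the 20656 genes had a log2 fold change above 0 with 4OHT at 8 min (median 1.43). The 47 genes were all above 0 too, but their median was 1.18, and 37 of the 47 lay below the median of all genes. Deposited values were whole reads divided by 1 number per library. A smaller divisor gives larger values. At 8 min it was 29.49 and 14.957 with DMSO and 11.297 and 8.095 with 4OHT. Read totals there were 112 and 93.1 M with DMSO and 118 and 134 M with 4OHT. The 60 spike-in RNAs summed on this scale to 1028 and 4194 with DMSO and to 4323 and 6391 with 4OHT. What set the divisor is not given, and its part in this shift of all genes was not tested. On a relative scale, which divides each library by the median ratio of its genes to the other libraries of the same time, 23 of the 47 genes were lower with 4OHT at adjusted p under 0.05 (limma), and none was higher. The background was 16.7% of all genes lower and 18.6% higher. The median of the 47 genes was -0.29, against -0.00 for all genes, and they ranged from -0.78 to 0.30. In RNA pooled from many cells, fewer cells in S phase and less new RNA per cell cannot be told apart. At an unadjusted p under 0.05, 25 members were lower and 2 higher, where 21.4% of all genes were lower and 23.1% higher, and neither edgeR nor DESeq2 called a member higher.

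Both 4OHT libraries lay below both DMSO libraries for 34 of the 47 genes, where the background was 33.7% of all genes. They lay above for 3 genes, Gins3, Rpa1 and Dbf4, where the background was 33.6%. In the 23 lower genes the fall was between 18.3% and 41.7% on the relative scale. A fit to all 8 libraries scaled together, in which the wider 0 min spread enters, called none of the 47 lower. The fold changes of the 23 there ran from -0.86 to -0.37, with adjusted p between 0.245 and 0.792. Of the 23, 21 kept the call without DMSO number 1 of the 8 min libraries, 14 without DMSO number 2, 14 without 4OHT number 1 and 13 without 4OHT number 2. The call held without each 8 min library in turn for 10 genes, Ccne1, Ccne2, Cdc6, Cdt1, Clspn, Mcm4, Pcna, Prim1, Rfc3 and Rrm2.

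**Figure D2:**
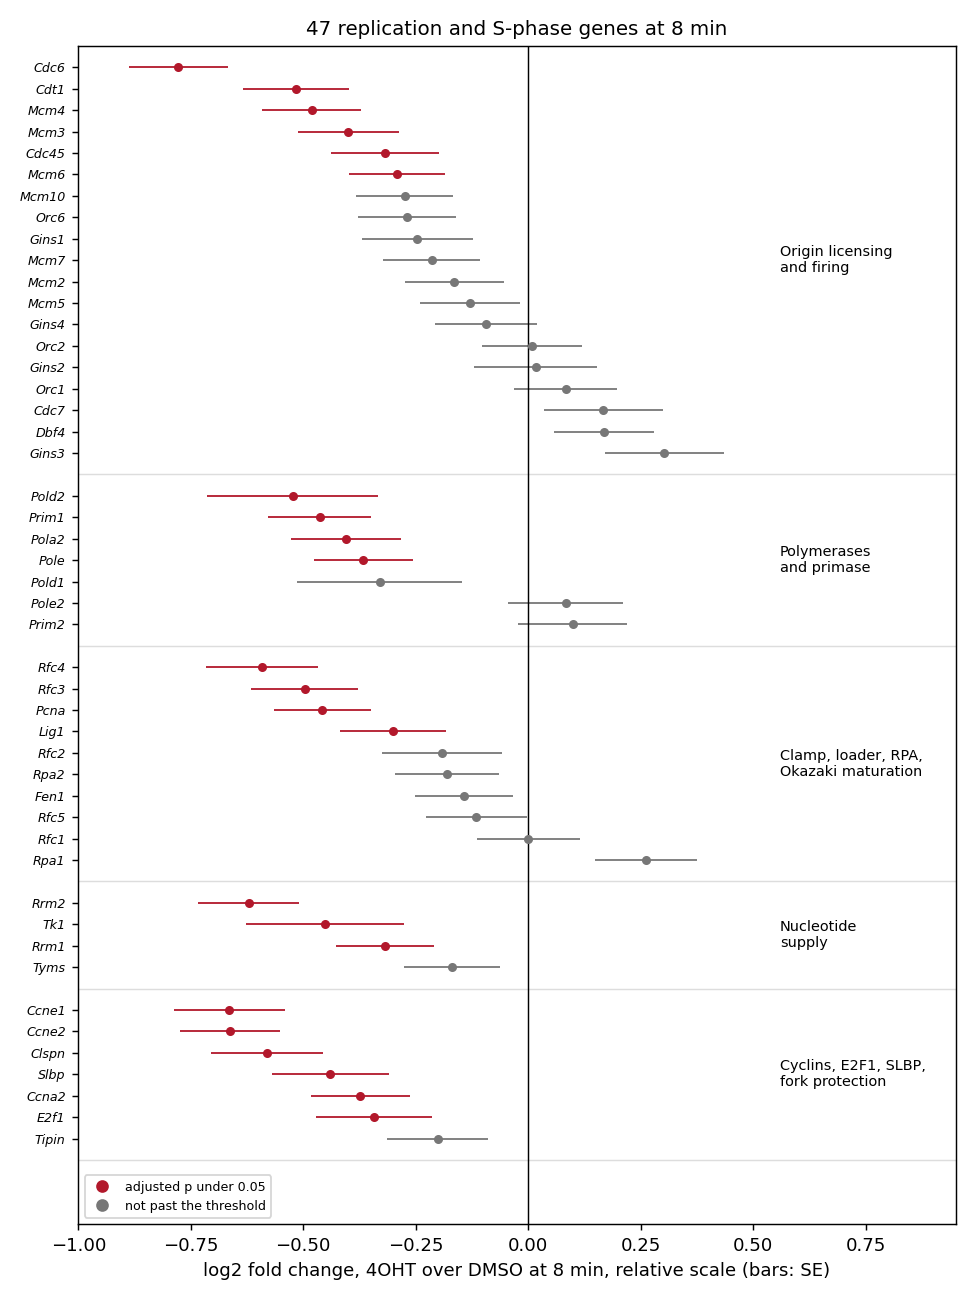
Fold change of each of the 47 genes with 4OHT against DMSO at 8 min on the relative scale (horizontal axis, log2, bars are SE, 2 libraries per group), grouped by role; red marks adjusted p under 0.05. The 23 red points all lie left of 0, from -0.78 (Cdc6) to -0.29 (Mcm6), while the same genes were above 0 on the deposited scale.

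Among genes of origin licensing and firing 6 of 19 fell on the relative scale, with a median of -0.21. The loaders of the helicase fell, 2 of 2. Cdc6, which recruits the helicase to the origin, had 621 and 609 normalised reads with DMSO against 372 and 345 with 4OHT, the lowest fold change of the 47 (-0.78 ± 0.11 SE, adjusted p = 8.0e-06). Cdt1, which delivers the helicase to CDC6 and the origin recognition complex, had 302 and 301 with DMSO and 205 and 216 with 4OHT (-0.52 ± 0.12, adjusted p = 0.00148). The groups of both genes were well apart, and the 2 DMSO libraries differed by less than the 4OHT libraries did.

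Of the 6 subunits of the MCM2 to MCM7 helicase 3 fell, and all 6 were below 0. Mcm4 had 834 and 955 normalised reads with DMSO and 618 and 661 with 4OHT (-0.48 ± 0.11, adjusted p = 0.00162). Mcm3 (-0.40, adjusted p = 0.00745) and Mcm6 (-0.29, adjusted p = 0.0362) also fell, with no overlap of the groups. Mcm7 (-0.21), Mcm2 (-0.16) and Mcm5 (-0.13) did not pass the test, and for Mcm5 the groups overlapped. The fold changes of this ring of subunits thus ran from -0.48 to -0.13.

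Cdc45, which joins the helicase when an origin fires, had 345 and 360.2 with DMSO and 309.9 and 257 with 4OHT (-0.32 ± 0.12, adjusted p = 0.0414). Mcm10, which helps to start the helicase, was just outside the threshold (-0.27, adjusted p = 0.0513), as was Orc6 of the origin recognition complex (-0.27, adjusted p = 0.0568). None of the 3 origin recognition genes, the 4 GINS genes or the 2 kinase genes passed the test. Orc1 stood at 0.08 and Orc2 at 0.01. In GINS, Gins1 (-0.25), Gins4 (-0.09) and Gins2 (0.02) lay near or below 0. Gins3 had 134 and 136 with DMSO and 174 and 159 with 4OHT (0.30 ± 0.13, adjusted p = 0.0787). Dbf4, the activator of the kinase CDC7, had 1362 and 1509 with DMSO and 1657 and 1567 with 4OHT (0.17, adjusted p = 0.254), and Cdc7 stood at 0.17 with overlapping groups.

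Among the polymerases and primase 4 of 7 fell, with a median of -0.37. Prim1, the catalytic subunit of primase, had 372 and 384 with DMSO and 287 and 261 with 4OHT (-0.46 ± 0.11, adjusted p = 0.00302). Prim2, the large subunit of primase, had 215 and 239 with DMSO and 238 and 247 with 4OHT (0.10, adjusted p = 0.558), so its groups overlapped. Pola2, the accessory subunit of polymerase alpha, fell by 0.40, and Pole, the catalytic subunit of the leading-strand polymerase epsilon, fell by 0.37 on the log2 scale. Pold2, the accessory subunit of polymerase delta, fell from a low level, 59.0 and 65.6 with DMSO to 39.4 and 46.9 with 4OHT (-0.52 ± 0.19, adjusted p = 0.0347). Pold1, the catalytic subunit of polymerase delta, was also at a low level and did not pass (-0.33, adjusted p = 0.169). Pole2 stood at 0.08 with overlapping groups. Primase and polymerase epsilon each had 1 subunit that fell and 1 above 0, and the difference between the subunits was not tested.

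In the group of the clamp, its loader, replication protein A and lagging-strand maturation 4 of 10 fell, with a median of -0.19. Pcna, the sliding clamp, had 1189 and 1188 normalised reads with DMSO and 891 and 840.3 with 4OHT (-0.46 ± 0.11, adjusted p = 0.00194). Of the 5 clamp loader genes Rfc4 and Rfc3 fell. Rfc4 had 3665 and 4253 with DMSO and 2534 and 2709.6 with 4OHT (-0.59 ± 0.12, adjusted p = 0.000727). Rfc3 had 350.1 and 412 with DMSO and 259 and 279 with 4OHT (-0.50 ± 0.12, adjusted p = 0.00232). The other loader genes were Rfc2 at -0.19, Rfc5 at -0.11 and Rfc1, the large subunit, at 0.00, and none passed.

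Rpa1 and Rpa2, which coat single-stranded DNA, stood on opposite sides of 0. Rpa1 had 592 and 532 with DMSO and 724 and 626 with 4OHT (0.26 ± 0.11, adjusted p = 0.0750), and Rpa2 had 355 and 413 with DMSO and 341 and 335 with 4OHT (-0.18, adjusted p = 0.237). Both genes kept their groups apart, but neither passed the test. The ligase Lig1 fell (-0.30, adjusted p = 0.0481), and the flap nuclease Fen1 stood at -0.14 (adjusted p = 0.331).

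Of the 4 genes of deoxynucleotide supply 3 fell, with a median of -0.38. Rrm2, the small subunit of ribonucleotide reductase and its S-phase form, had 544 and 625 with DMSO and 385 and 372 with 4OHT (-0.62 ± 0.11, adjusted p = 0.000157). Rrm1, the large subunit, had a log2 fold change of -0.32 (adjusted p = 0.0270), and the difference between the subunits was not tested. Tk1, the salvage kinase of thymidine, had 87.4 and 86.2 with DMSO and 74.4 and 53.7 with 4OHT (-0.45 ± 0.18, adjusted p = 0.0487). The call of Tk1 was kept in 7 of 18 alternatives and was lost with edgeR, DESeq2 and without DMSO number 1 or 2 or 4OHT number 2. Tyms, which makes thymidylate, stood at -0.17 and did not pass (adjusted p = 0.230).

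The cyclins, E2f1, Slbp and fork protection genes had the lowest median of the 5 role groups, -0.44, and 6 of 7 fell. Ccne1 and Ccne2 encode the E cyclins, which drive entry into S phase with CDK2. Ccne1 had 287 and 257 with DMSO and 174 and 168 with 4OHT (-0.66 ± 0.12, adjusted p = 0.000202). Ccne2 had 546 and 562 with DMSO and 332 and 367 with 4OHT (-0.66 ± 0.11, adjusted p = 6.6e-05). Every 4OHT value of the E cyclins was well below every DMSO value of the same gene. Ccna2, the cyclin of S phase and G2, had 909 and 1052 with DMSO and 750.2 and 759.6 with 4OHT (-0.37 ± 0.11, adjusted p = 0.0111).

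Clspn, the mediator of checkpoint signals at the fork, had 241 and 271 with DMSO and 172 and 169 with 4OHT (-0.58 ± 0.12, adjusted p = 0.00082). Its partner in fork protection, Tipin, stood at -0.20 (adjusted p = 0.167). Slbp, whose protein binds the stem-loop of replication-dependent histone mRNAs, had 4501 and 4932 with DMSO and 3723 and 3242 with 4OHT (-0.44 ± 0.13, adjusted p = 0.0107). E2f1, a transcription factor of this family's promoters, also fell, from 228 and 206 with DMSO to 182 and 159.7 with 4OHT (-0.34 ± 0.13, adjusted p = 0.0403). E2f1 kept its groups apart, with the gap between them smaller than that of the E cyclins.

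**Figure D3:**
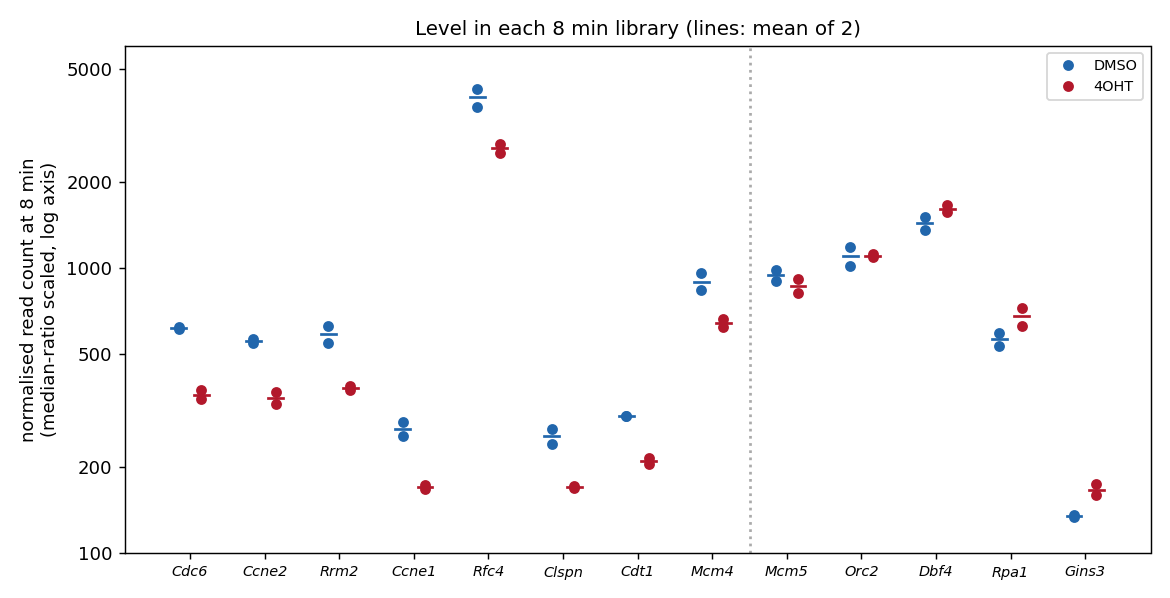
Normalised read count in each 8 min library (vertical log axis, median-ratio scaled within 8 min) for the 8 genes of smallest p on the left of the dotted line and for Mcm5, Orc2, Dbf4, Rpa1 and Gins3 on the right; points are libraries, lines the mean of 2. On the left both 4OHT points lie below both DMSO points for each gene, such as Cdc6 with 372 and 345 below 621 and 609, while Dbf4, Rpa1 and Gins3 show the opposite order, the groups of Mcm5 and Orc2 overlap, and on the deposited scale each gene shown had a log2 fold change above 0.

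On the deposited scale, without a replicate block, 16 of the 47 genes were higher with 4OHT at 8 min and none lower. The background was 58.8% higher and 0.131% lower. At an unadjusted p under 0.05, 24 of the 47 (51.1%) were higher and none lower, where 68.6% of all genes were higher. Gins3 had the smallest p, with 64.1 and 102 with DMSO and 229.9 and 333 with 4OHT (1.76 ± 0.61 SE, adjusted p = 0.0145), followed by Rpa1 (1.73), Cdc7 (1.63) and Prim2 (1.56). The 4OHT values of Gins3 were above both DMSO values. Cdc6, the lowest gene on the relative scale, had 298 and 459 with DMSO and 491 and 724 with 4OHT (0.69 ± 0.58, adjusted p = 0.264), so that its groups were apart here too, in the opposite direction. The 16 fell to 0 when either DMSO number 1 or 4OHT number 2 of the 8 min libraries was left out. They numbered 5 and 6 without DMSO number 1 or number 2 of the 0 min libraries, and 25 and 26 without 4OHT number 1 or number 2.

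At 0 min, when labelled RNA had no time to build up, no member passed the test on either scale, nor did any other gene (0% of all genes). No member had an unadjusted p under 0.05, against 110 genes higher and 70 lower of all genes on the relative scale, and edgeR and DESeq2 also called none of the 47. The median of the 47 genes was -0.05 on the relative scale, against -0.01 for all genes. Both 4OHT libraries lay below both DMSO libraries for 5 genes (Cdt1, E2f1, Tk1, Tyms and Gins2) and above for 2 (Lig1 and Ccna2), where the background was 9.07% below and 9.58% above. Cdc6 had 21.8 and 27.4 with DMSO and 16.3 and 24.0 with 4OHT, so its 0 min groups overlapped. Ccne1 overlapped too, at 22.8 and 17.7 in DMSO cells and at 33.4 and 17.4 in 4OHT cells. The difference between the 8 min and 0 min effects passed, in the fit without a replicate block, for none of the 47 genes. Of all genes 0.387% were called higher. None of the 47 had an unadjusted p under 0.05 for this difference, where 17.5% of all genes were higher and 0.107% lower. Its median was 0.97 over the 47 genes, against 1.15 for all genes. The smallest adjusted p of the difference among the 47 was 0.298, for Rpa1. With the number in the column names as a block 7 members (14.9%) passed as higher, against 30.1% of all genes.

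The gain from 0 to 8 min compares the signal before and after transcription resumed. In DMSO cells 39 of the 47 genes rose on the deposited scale and none fell, with a background of 47% higher and 1.96% lower. Their median log2 fold change was 2.50, against 1.25 for all genes. Slbp rose most, from 68.5 and 93.3 at 0 min to 2157 and 3718 at 8 min (5.13 ± 0.63, adjusted p = 3.8e-14). Pcna rose from 30.1 and 29.8 to 569.9 and 895 (4.53 ± 0.59), Rfc3 from 8.45 and 11.7 to 168 and 311 (4.39 ± 0.59), and Cdc45 from 12.2 and 6.91 to 165 and 272 (4.38 ± 0.59). In each of these genes the 8 min libraries were far above the 0 min libraries.

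At the other end, Pold2 had 47.7 and 30.4 at 0 min and 28.3 and 49.5 at 8 min, and Gins2 had 110.2 and 124 at 0 min and 76.7 and 127 at 8 min. Both genes overlapped between the times (-0.02 and -0.24). The other genes that did not pass were Pold1 (0.57), Rfc5 (0.86), Mcm2 (1.14), Pola2 (1.15), Cdt1 (1.21) and Rpa1 (1.23). The 0 min level was a median of 17.0% of the 8 min level over the 47 genes in DMSO cells, from 2.75% in Slbp to 115% in Gins2. Of the 31 genes with a 0 min level under 25% of the 8 min level 18 fell with 4OHT on the relative scale, and of the other 16 genes 5 did. Both levels of this split are on the deposited scale. The shares of all genes called lower on each side of 25% were not counted, so the split is not a result about the members.

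In 4OHT cells 45 of the 47 genes rose from 0 to 8 min, with a background of 74% higher and 0.823% lower and a median of 3.36 against 2.49 for all genes. Slbp (5.78), Tyms (5.72), Rfc3 (5.57) and Pcna (5.32) had the highest values. Pold2 (0.57) and Gins2 (1.20) did not pass. The gain in both treatments rests on the deposited scale. With all 8 libraries brought to the same median, the number of the 47 genes that rose in 4OHT cells went from 45 to 28, and 2 fell. The share of all genes that rose or fell under this scaling was not counted. These counts thus have no background beside them and show only that the gain depends on the scale.

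**Figure D4:**
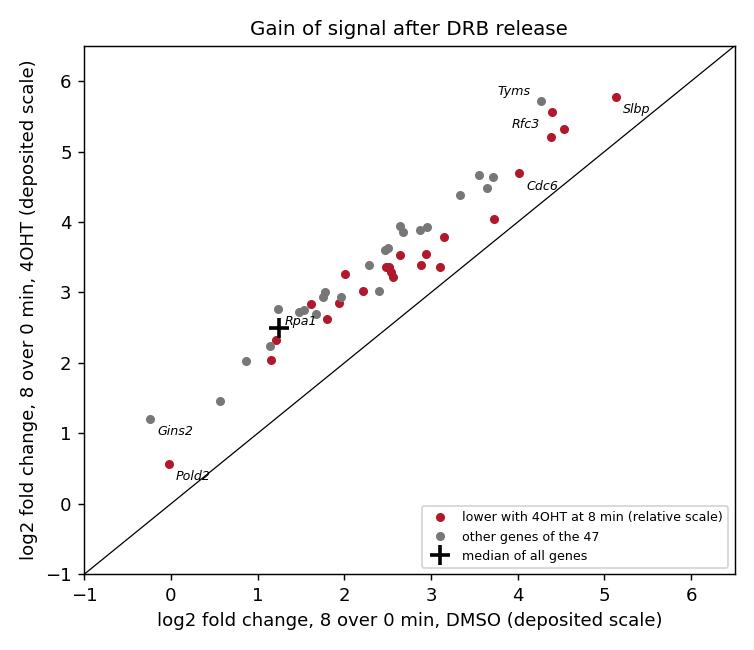
Log2 fold change from 0 to 8 min on the deposited scale in DMSO cells (horizontal) and 4OHT cells (vertical), 1 point per gene of the 47; red points are the 23 genes lower with 4OHT at 8 min on the relative scale, the cross is the median of all genes (1.25 and 2.49) and the line marks equal gain. Every point lies above the line, Slbp is at the upper end and Pold2 and Gins2 at the lower end.

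Genes differ in how far a polymerase can travel in 8 min, so the members were also grouped by annotated length, which ran from 3.9 kb (Pcna) to 216 kb (Prim2). Of members under 10 kb 7 of 12 were lower on the relative scale (58.3%), against 18.4% of all protein-coding genes of that length. From 10 to 30 kb it was 12 of 25 (48%) against 14.2%, and from 30 to 100 kb 4 of 9 (44.4%) against 11.7%. Prim2 was the only member over 100 kb and did not pass. The medians of the members in the first 3 classes were -0.42, -0.29 and -0.17, against -0.10, 0.02 and 0.13 for protein-coding genes. The Spearman correlation of length and fold change across genes, which share the 4 libraries and are not independent, was 0.37 over the 47 genes and 0.14 over 13951 protein-coding genes. When scaling was done within length classes, 22 of the 23 genes kept the call.

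Per kb of gene, the 8 min signal of DMSO cells on the relative scale was highest in Slbp (377), Pcna (305) and Rfc4 (287) and lowest in Prim2 (1.05) and Pold1 (3.95), with a median of 31.4 over the 47 genes. It was a median of 24.4 in 4OHT cells. This measure spreads the reads over introns that a polymerase may not have reached, so it depends on the annotated length.

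Members with and without an E2F word differed little in the 8 min effect on the relative scale. Of the 13 genes with a word 7 were lower, with a median of -0.30, and of the 24 without one 12 were lower, with a median of -0.30. The range with a word ran from -0.78 (Cdc6) to 0.30 (Gins3), both genes whose stretches are printed above with the word in the same letters. The words CCAAT (bound by NF-Y) and TTTGAA (the core of the cell cycle homology region) were searched on both strands. They were held by 59.5% and 18.9% of the members with a window, against 42.8% and 15.4% of all genes with a window. Places where words of different factors overlap were not counted apart.

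Other genes annotated on top of a member can add reads, since the strand counted is not stated. An annotated protein-coding gene overlapped 14 of the 47. Ccne2 shares 5622 bases with Ints8 (-0.15, adjusted p = 0.305), and Rfc4 shares 185 bases with Eif4a2 (-0.41, adjusted p = 0.0233). Ccna2 shares 863 bases with Exosc9 (-0.32, adjusted p = 0.0280), and Orc1 shares 3632 bases with Prpf38a (-0.26, adjusted p = 0.0817). Orc1 also shares 15947 bases with the noncoding gene Gm12743, which was higher (0.51, limma adjusted p = 0.00255). Gins2 shares 118 bases with Gse1 (0.73, limma adjusted p = 2.6e-05), and Mcm7 shares 91 bases with Ap4m1 (-0.64, limma adjusted p = 0.000275). Cdc6, Cdt1, Rrm2, Ccne1, Pcna, Rfc3, Mcm4 and Prim1 have no overlapping annotated protein-coding gene.

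Neighbouring pathways were set beside the 47 genes on the same relative scale. Among 34 other genes of the fork and origins 10 fell and none rose, with a median of -0.23. Orc5 of the origin recognition complex fell most clearly (-0.67, adjusted p = 7.3e-05), then Top2a, which untangles DNA (-0.53), and Pola1, the catalytic partner of Pola2 (-0.41). At an unadjusted p under 0.05, 17 of the 34 were lower and 1 higher. Of 11 genes of chromatin assembly and DNA methylation at the fork 2 fell and none rose, Uhrf1, which guides maintenance methylation (-0.89, adjusted p = 3.7e-06), and Chaf1a, a histone chaperone of the fork (-0.35, adjusted p = 0.0147). This is 18.2% of the list, near the 16.7% of all genes called lower. At an unadjusted p under 0.05, 3 of the 11 (27.3%) were lower and none higher, against 21.4% of all genes lower.

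Other nucleotide supply genes were mixed in direction. Of 14 tested, 2 rose and 1 fell, and those that rose were Mthfd1 of folate metabolism (0.64) and Umps of pyrimidine synthesis (0.55). Of 17 fork checkpoint and repair genes 3 fell (17.6%, near the 16.7% of all genes) and 1 rose. Rad9a, a subunit of the checkpoint clamp (-0.53), and Chek1, the kinase that Clspn helps to activate (-0.39), fell, and the nuclease Exo1 rose (0.41).

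Among 30 other regulators of the G1/S step 7 rose (23.3%) and 6 fell (20%). These shares are near the 18.6% and 16.7% of all genes. Ccnd2, a D cyclin, rose from 84.1 and 85.3 with DMSO to 192 and 197 with 4OHT (1.19 ± 0.14, adjusted p = 4.9e-07). Rbl2, a pocket protein that represses E2F targets, rose (0.75), as did Fbxw7, which targets cyclin E for degradation (0.65). The 6 that fell were Rbl1, another pocket protein (-0.60), E2f8 (-0.56), E2f5 (-0.46), Cdc25a (-0.36), Cdk6 (-0.48) and Cdk2 (-0.48). The part of these regulators in the results was not tested. Of 23 genes of G2 and mitosis 7 fell and 1 rose. Ccnb1 (-0.59), Cenpf (-0.46) and Kif20a (-0.42) had the smallest p. Of 70 replication-dependent histone genes 63 fell and 1 rose, with a median of -0.75. Histone copies are near-identical, so their reads may be split between copies.

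**Figure D5:**
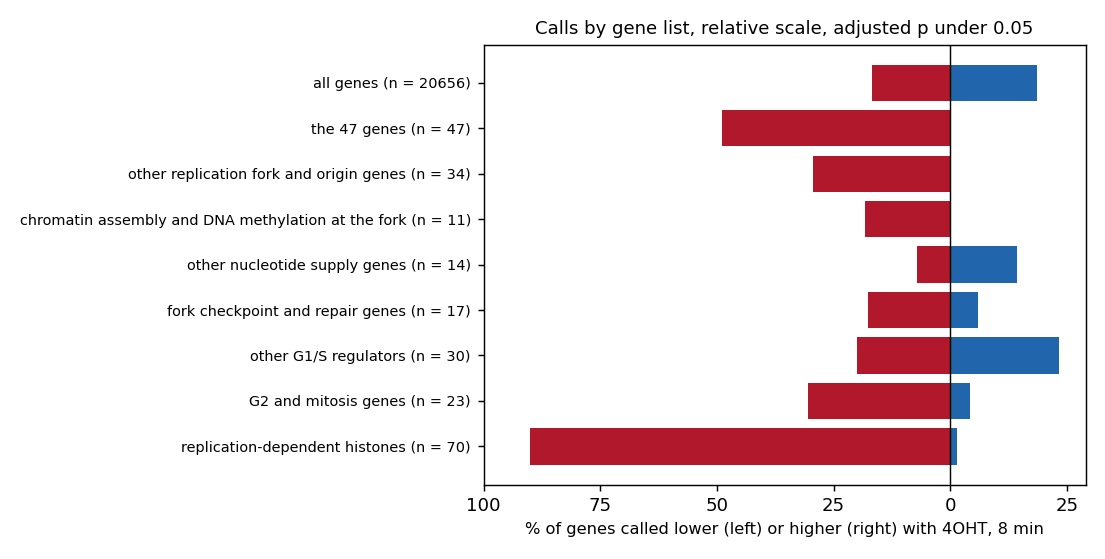
Percent of genes called lower (left, red) and higher (right, blue) with 4OHT at 8 min on the relative scale, for all genes, the 47 genes and 7 other lists, with the number tested in brackets. The 47 genes have 23 calls to the left and none to the right, the histones 63 and 1, and the other G1/S regulators 6 and 7. On the deposited scale the calls of all genes were 58.8% higher and 0.131% lower.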

How the data were processed

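The authors deposited 1 table of signal values, with 38971 entries for 8 libraries; the submitters' processing notes name the mm10 build, Bowtie2, STAR 2.7 and bcl2fastq, and the role of each, the strand counted and the normalisation are not given in the sources used here. In each library 100% of the deposited signal values were, within 0.01, whole reads divided by 1 number (8.095 to 29.49), so reads were recovered. Columns were assigned to groups only, because the numbers in their names do not match the sample titles.

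Values were analysed as log2(value + 1) for genes of at least 10 in at least 2 libraries, in R 4.3.3 with the two-sided test of limma 3.58.1 (empirical Bayes with a variance trend, Benjamini-Hochberg over all genes, threshold 0.05). A fold change on this scale understates changes of low genes. The deposited scale used all 8 libraries as they stand, and the relative scale used the 4 libraries of 1 time after median-ratio scaling. Whole-read tests with edgeR 4.0.16 called 3713 genes higher and 3383 lower at 8 min on the relative scale, and DESeq2 1.42.0 called 3718 and 3413. Simulated counts for the 8 min relative comparison (20656 genes) gave 100% of log2 changes of 1 or -1 back, 40% of 0.5 and 30% of -0.5, and called 0.0196% of unchanged genes. The simulation changed few genes, none of low level, gave every gene the same dispersion and drew libraries independently. These shares are thus not error rates of the real libraries. Reads are not independent molecules.

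The members and lists were chosen with earlier results of these data known. Values in every library are given for up to 8 lower and 8 higher members of smallest p in the relative 8 min fit, fold changes for the other called members, up to 4 genes each way in other comparisons, up to 3 of smallest p per other list, and Ythdc1. Promoters are printed for called members whose window holds an E2F word. Per-library values of other members, the Gins3 promoter and the named G1/S regulators that fell were chosen after their values were seen. Names and coordinates came from RefSeq (GRCm38.p6), in which all 47 matched. The values of 1 gene of another list are not reported here.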

Additional observations from a re-analysis of the deposited data

Results flagged for a closer look

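For 2 genes the order of the groups at 8 min was opposite to that at 0 min on the relative scale. How many of all genes show such a change of order was not counted. Both 4OHT libraries lay below both DMSO libraries at 8 min for 33.7% of all genes, and above them at 0 min for 9.58%. Lig1 had 46.6 and 42.4 in DMSO cells at 0 min, below the 49.4 and 53.1 of 4OHT cells. At 8 min it had 367 and 434 in DMSO cells, above the 318 and 329.9 of 4OHT cells, so the log2 fold change was 0.20 at 0 min and -0.30 at 8 min. Ccna2 had at 0 min 90.2 and 85.1 in DMSO cells, below the 126 and 90.9 of 4OHT cells, so its 0 min groups nearly met. It was lower with 4OHT at 8 min, with log2 fold changes of 0.29 at 0 min and -0.37 at 8 min. The difference was not tested on the relative scale. On the deposited scale the difference of the 8 and 0 min effects was above 0 for both and did not pass (limma, adjusted p = 0.533 for Lig1 and 0.637 for Ccna2).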

How the results depend on the processing

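No call of the 23 lower genes reversed under any of the 19 alternatives; counted over genes and alternatives, 349 calls were kept and 86 lost. All 23 calls were kept with pseudocounts of 0.5 and 5, TMM scaling, the replicate block and, added after seeing the data, scaling over protein-coding genes outside the lists, and 22 were kept by edgeR, by DESeq2 and by scaling within length classes (also added later). Ccne1, Ccne2, Cdc6, Cdt1, Clspn and Rrm2 kept the call under every alternative except the scaling of all 8 libraries together. On the relative scale at 8 min, lower members numbered 7 without a variance trend and 0 with all 8 libraries scaled together, and 13 to 22 when a library was left out, with 0 to 1 higher. Over all genes a minimum of 100 gave 2295 higher and 2112 lower, no trend 2236 and 2058, all 8 scaled together 2 and 28, and length classes 2518 higher, and leaving out a library gave 2132 to 3766 higher and 1995 to 3275 lower.

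On the deposited scale at 8 min, higher members numbered 4 with no filter, 10 with the 4 libraries alone, 0 after median-ratio or quantile scaling of all 8 libraries, and 0 to 26 without a library. Over all genes no filter gave 6539 higher and 57 lower, a minimum of 100 gave 7692 and 6, median-ratio scaling 2 higher, quantile scaling 14 and 51. Leaving out a library gave 239 to 14355 higher and 3 to 37 lower. For the 4 libraries alone the count over all genes is not given here, so the 10 members have no background beside them. With median-ratio and quantile scaling, 28 and 25 members rose from 0 to 8 min with 4OHT and 2 and 4 fell, and 2 and 3 fell with DMSO. For this gain the shares of all genes under these scalings were not counted. The causes were not tested.

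Same-numbered libraries deviated together at 0 min (r = 0.47 over 20656 genes) and less at 8 min (r = 0.09). The column names carry both numbers in every group, but the sample titles conflict with them. Whether same-numbered libraries are pairs is therefore not known, and the main fits treat them as unpaired. With the replicate number as a block, 46 members were higher on the deposited scale, where 82.7% of all genes were higher and 65 lower, and 22 of the 23 were among them. On the relative scale 25 members were lower and 1 higher, where 19.1% of all genes were lower and 20.8% higher. In the difference of the 8 and 0 min effects 7 members (14.9%) passed as higher, against 30.1% of all genes. The 2 libraries per group and the unknown divisor limit these results.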
